A study of Mus musculus with 3 samples.

Results

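The 7 genes described here encode the core of the methionine and S-adenosylmethionine cycle and the RNA methyltransferase that regulates it: Mat2a, Mat2b, Mettl16, Ahcy, Ahcyl1, Mtr and Mtrr. They were chosen by symbol, and all 7 symbols were found among the 32285 genes listed. Mat2a had been singled out because of its level in these libraries, so the ratios below describe the libraries and were not tested. Mouse embryonic stem cells of the E14 line (129/Ola background) grew on gelatin in serum with leukemia inhibitory factor. From 24 h after seeding they received 250 µg/mL cycloheximide, an inhibitor of translation elongation, in 0.007% ethanol. The control cells received ethanol alone for 6 h, a second culture received cycloheximide for 3 h and another received it for 6 h. The 3 h library therefore had no ethanol control of equal duration. Cells were detached, frozen and thawed before single-cell 3' RNA sequencing, and each group was 1 library.

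In this cycle, methionine adenosyltransferase joins methionine to ATP and makes S-adenosylmethionine (SAM), the methyl donor of most methylation of DNA, RNA and protein. Each methyl transfer leaves S-adenosylhomocysteine, which is cleaved to homocysteine, and methionine synthase methylates homocysteine back to methionine. MAT2A is the catalytic subunit in most cells, and pluripotent stem cells are known to depend on a steady supply of methionine. METTL16 is known to bind hairpins in the 3' untranslated region (UTR) of the Mat2a transcript. When SAM is scarce, its lasting occupancy promotes splicing of a retained last intron, and when SAM is plentiful the hairpins are methylated and the transcript is known to be less stable.

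The letters that METTL16 is known to recognise were present in the Mat2a reference transcript, and the matches are printed because they set Mat2a apart from the other 6 genes. The search was for TACAGAGAA or TACAGAAAA in the longest coding transcript of each gene, in the GENCODE M21 annotation of GRCm38. In Mat2a (chromosome 6, 72432799 to 72439558, minus strand), 6 matches lay in the 3' UTR of transcript Mat2a-201, which is 1494 bases long. Each is shown 5' to 3' on the transcript strand with 10 bases on either side and the 9 matched letters in capitals.
Site 1, chr6:72434235-72434263, from base 40 after the stop codon: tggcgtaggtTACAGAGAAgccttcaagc
Site 2, chr6:72433451-72433479, from base 824: ccttgtgataTACAGAGAAgtcacagggc
Site 3, chr6:72433272-72433300, from base 1003: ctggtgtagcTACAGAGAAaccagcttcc
Site 4, chr6:72433157-72433185, from base 1118: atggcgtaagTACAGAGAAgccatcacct
Site 5, chr6:72433046-72433074, from base 1229: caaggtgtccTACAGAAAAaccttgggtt
Site 6, chr6:72432938-72432966, from base 1337: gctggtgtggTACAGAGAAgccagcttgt

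Among 20672 genes with an annotated 3' UTR, 784 (3.79%) held at least 1 match on the transcript strand. In the first 1494 bases of the 6375 genes whose 3' UTR was at least that long, 265 (4.16%) held at least 1 match and 6 (0.0941%) held at least 2. Mat2a, with 6 matches, had the most of any gene. The motif was taken in its published form, and METTL16 was already known to bind hairpins in this 3' UTR. The rank of Mat2a therefore describes its sequence and was not a test. The 3' UTRs of the other 6 genes held 0 matches on that strand. On the opposite strand Ahcyl1 held 1 match and Mat2a held 0. A match describes the letters only.

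Transcripts Mat2a-201 and Mat2a-202 end at the same base, and their last 1597 bases are shared. The last intron of Mat2a-201 (intron 8, 585 bases, chr6:72434396-72434980) lies inside the last exon of Mat2a-202. Reads near the 3' end therefore count spliced and intron-retaining Mat2a RNA together, and how the UMIs divided between them was not analysed here.

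**Figure D1:**
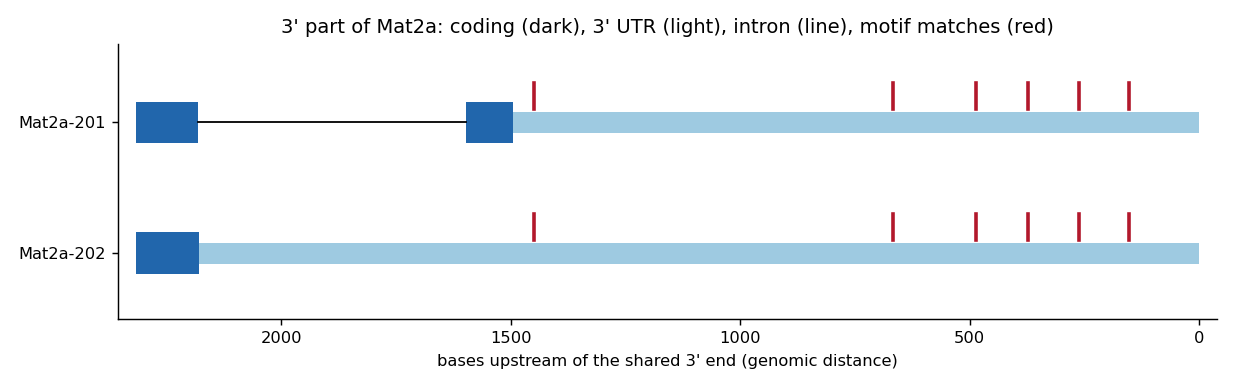
Map of the 3' end of the Mat2a-201 and Mat2a-202 transcripts, with genomic distance in bases upstream of their common end on the horizontal axis. Dark boxes are coding sequence, light bars the 3' UTR, the thin line intron 8 of Mat2a-201 (585 bases) and red ticks the 6 motif matches, all of which lie in sequence that both transcripts carry.

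The analysis used barcodes with at least 15000 unique molecular identifiers (UMIs, 1 per captured RNA molecule) of which 1 to 20% came from mitochondrial genes. This kept 2187 control, 1739 3 h and 2554 6 h barcodes with 106842407 to 140321458 UMIs per library, and median depths of 43160 to 51726 UMIs. The mitochondrial share was 4.57%, 3.51% and 2.94%. Pairs of libraries shared 1 to 3 selected barcodes. All 7 stem cell markers examined were above a mean of 10 counts per 1000000 UMIs (CPM) over the 3 libraries. Dppa5a made up most of their summed level, at 4771, 5327 and 5475 of 6703, 7554 and 6857 CPM in control, 3 h and 6 h. After 3 h, 6 of the 7 were above control in CPM, where 64.1% of all genes with such a mean were. The list median minus the all-gene median was then 0.27. After 6 h, 5 of the 7 were below control in CPM, where 35.9% of all such genes were. The list median minus the all-gene median was then -0.36. By log2 ratio to control after 6 h, Zfp42 was the lowest of the 7 (-0.93) and Nanog the highest (0.24). Zfp42 was at 455, 592 and 240 CPM and Nanog at 123, 175 and 145 CPM. Utf1 was 545, 501 and 329 CPM and Sox2 213, 285 and 146 CPM. A part of this in the results was not tested. The fibroblast, endoderm, and mesoderm and neuroectoderm marker lists, of 6 genes each, had 0 genes above that floor. Their summed levels over the 3 libraries ranged from 2.23 to 3.09 CPM for fibroblasts, from 8.94 to 12.4 CPM for endoderm and from 19.99 to 26.75 CPM for mesoderm and neuroectoderm, and the fibroblast genes Col3a1 and Postn had 0 UMIs. Of 5 trophoblast markers 1 was above the floor, Tfap2c, which stem cells also express, at 7.74, 16.8 and 18.3 CPM (the list summed to 10.9, 19.2 and 21.5 CPM, with Elf5 at 0 UMIs). A part of any such cells in the results was not tested.

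Mat2a had the largest difference among the 7 genes, and the difference from control was larger after 6 h than after 3 h. Its level was 288 CPM in the control (exact Poisson 95% interval 284 to 291, 32050 UMIs), 116 CPM after 3 h (114 to 118, 12365 UMIs) and 36.1 CPM after 6 h (35.1 to 37.1, 5069 UMIs). The 3 intervals did not overlap, with the control highest and 6 h lowest. Mat2a thus stood at 40.2% of the control after 3 h and at 12.6% after 6 h. The log2 ratio to control was -1.31 after 3 h (exact conditional binomial 95% interval -1.34 to -1.28) and -2.99 after 6 h (-3.04 to -2.95), which is 7.96-fold lower. Between the 3 h and 6 h libraries the log2 ratio was -1.68 (-1.73 to -1.63), or 3.20-fold lower. The control had ethanol for 6 h and was not a starting point, so these ratios do not give a rate for either span. The intervals here, like all below, cover counting error only. Differences between cultures and library preparations could not be measured with 1 library per group.

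Among the 7608 genes whose mean over the libraries reached 10 CPM, Mat2a was the 18th lowest after 3 h and the 7th lowest after 6 h. It was 1 of 39 genes (0.513%) at least 2-fold lower after 3 h and 1 of 183 (2.41%) after 6 h, and 1 of 26 (0.342%) at least 4-fold lower after 6 h. From 3 h to 6 h it was 1 of 50 genes (0.657%) at least 2-fold lower. None of the other 5 cycle genes above the floor was 2-fold lower or higher at either time, where 4.32% of genes after 3 h and 8.65% after 6 h were at least 2-fold higher. The median log2 ratio of all 7608 genes was 0.11 after 3 h and 0.17 after 6 h, so a gene whose CPM equalled the control stood slightly under the typical gene. Relative to that median, Mat2a was at -1.42 and -3.16.

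The scaling of the libraries bears on genes close to 0 and on genes close to the 2-fold limit. With TMM factors in place of library totals, the median of all genes shifted by -0.17 after 3 h and -0.29 after 6 h. The share of genes above 0 after 6 h was 64.1% with library totals and 40.5% with TMM factors, and after 3 h it was 64.1% and 42.6%. The split after 6 h was 183 genes at least 2-fold lower and 658 higher with totals, against 395 and 356 with TMM. After 3 h it was 39 and 329, against 64 and 220. Positions relative to the all-gene median, and differences between the log2 ratios of 2 genes, do not depend on this choice and are given beside the ratios.

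**Figure D2:**
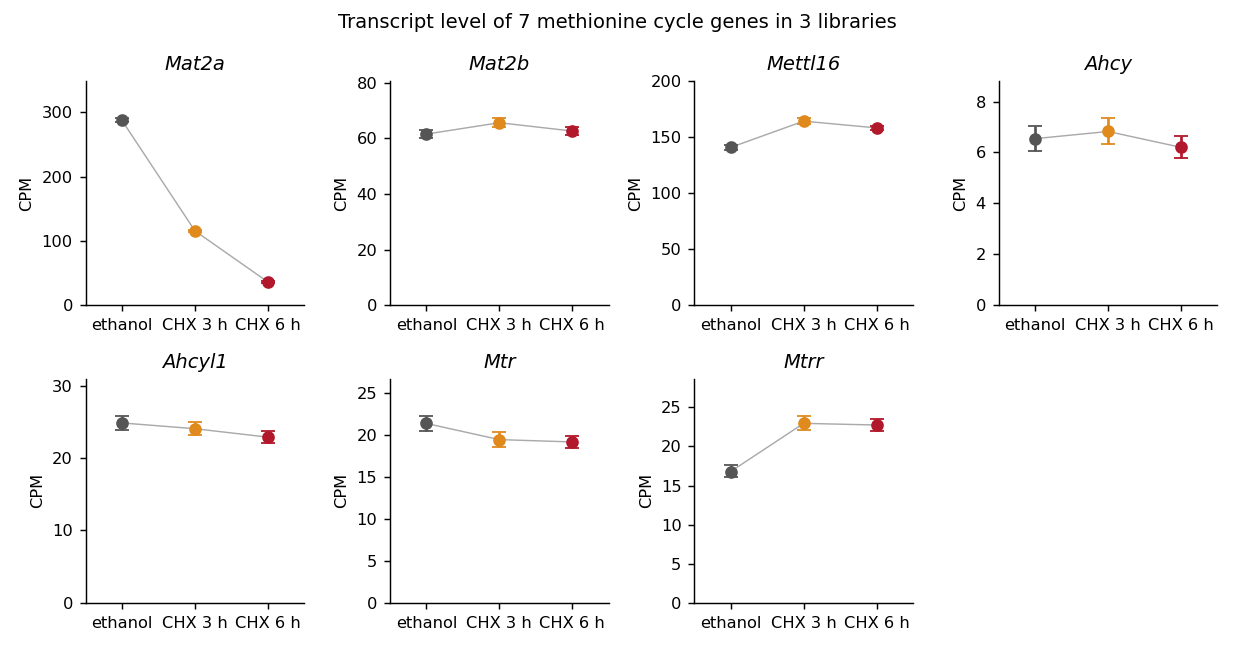
Level of each of the 7 genes in the 3 libraries, in CPM on linear axes that start at 0, with points for the summed counts and bars for exact Poisson 95% intervals. Mat2a runs from 288 to 116 to 36.1 CPM, while Mat2b, Ahcyl1 and Mtr stay near their control level. Mettl16 (whose 6 h sign turns with TMM factors) and Mtrr are above their control level at both times. Ahcy, counted alone, stays near control but is under the floor, and its sum with the near-identical Gm4737 is 17.6, 12.5 and 11.1 CPM.

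Mat2b, on chromosome 11 (40679314 to 40695203, minus strand), encodes the regulatory subunit that binds MAT2A. Its level was 61.5 CPM in the control (60.1 to 63.0), 65.6 CPM after 3 h (64.1 to 67.2) and 62.6 CPM after 6 h (61.3 to 63.9). The control and 6 h intervals overlapped, and 3 h lay above both. The log2 ratio was 0.093 (0.045 to 0.14) after 3 h and 0.026 (-0.020 to 0.071) after 6 h. Both signs turned with TMM factors, to -0.082 and -0.26. Relative to the all-gene median it was -0.019 and -0.14. Mat2a RNA was therefore lower against Mat2b RNA by 1.41 log2 units after 3 h (Mat2a minus Mat2b -1.41, -1.46 to -1.35). After 6 h it was lower by 3.02 (-3.02, -3.08 to -2.96). The proteins of the catalytic and regulatory subunits were not measured here.

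Mettl16, on chromosome 11 (74770830 to 74828525, plus strand), was 141 CPM in the control (139 to 143), 164 CPM after 3 h (162 to 167) and 158 CPM after 6 h (156 to 160). The control was lowest and 3 h highest, with no overlap of the counting intervals. Its log2 ratio was 0.22 after 3 h (0.19 to 0.25) and 0.17 after 6 h (0.14 to 0.20). With TMM factors these were 0.047 and -0.12, so the 6 h sign turned. Relative to the all-gene median Mettl16 stood at 0.11 after 3 h and 0.0020 after 6 h, which is the position of a typical gene after 6 h.

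Set directly against its regulator, Mat2a was lower at each step. The Mat2a minus Mettl16 difference in log2 ratio was -1.54 after 3 h (exact conditional odds-ratio 95% interval -1.58 to -1.49), a 2.898-fold difference. After 6 h it was -3.16 (-3.21 to -3.11), an 8.94-fold difference, and from 3 h to 6 h it was -1.63 (-1.68 to -1.57). Library scaling cancels in this quantity. It compares transcript levels only, since METTL16 protein and SAM were not measured here.

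Ahcy, on chromosome 2 (155059310 to 155074497, minus strand), encodes the hydrolase that removes S-adenosylhomocysteine. It was counted at 6.54 CPM in the control (6.07 to 7.03), 6.82 CPM after 3 h (6.34 to 7.34) and 6.20 CPM after 6 h (5.79 to 6.63), which is under the 10 CPM floor. All 3 intervals overlapped. These values are uncertain, because Gm4737, a gene also listed in the files, is 99.7% identical to Ahcy-201 over 2083 of its 2543 bases. How reads shared by such genes were counted is not given in the sources used here. Gm4737 was counted at 11.1, 5.69 and 4.85 CPM, with log2 ratios of -0.96 after 3 h and -1.19 after 6 h. The sum of Ahcy and Gm4737, an alternative added after the data were seen, was 17.6, 12.5 and 11.1 CPM. Its log2 ratios were -0.49 (-0.60 to -0.39) and -0.67 (-0.77 to -0.58), against 0.061 (-0.089 to 0.21) and -0.077 (-0.22 to 0.067) for Ahcy alone. The processed pseudogenes Gm9826 and Gm5638 also resemble Ahcy, and the antisense gene Gm45609 overlaps it.

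Ahcyl1, on chromosome 3 (107663118 to 107696560, minus strand), encodes an AHCY-like protein that binds the inositol trisphosphate receptor. It was 24.9 CPM in the control (23.9 to 25.8), 24.1 CPM after 3 h (23.1 to 25.002) and 22.9 CPM after 6 h (22.1 to 23.7). The control and 6 h intervals did not overlap, and 3 h overlapped both. The log2 ratio was -0.047 (-0.13 to 0.031) after 3 h and -0.12 (-0.19 to -0.045) after 6 h, or -0.16 and -0.28 relative to the all-gene median. Only its 3 h sign depended on the scaling, at 0.22 in UMIs per barcode.

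Mtr, on chromosome 13 (12182712 to 12258113, minus strand), encodes the cobalamin-dependent methionine synthase that closes the cycle. It was 21.4 CPM in the control (20.5 to 22.2), 19.4 CPM after 3 h (18.6 to 20.3) and 19.2 CPM after 6 h (18.5 to 19.9). Both treated libraries lay under the control, and they overlapped each other. The log2 ratios were -0.14 (-0.22 to -0.051) and -0.16 (-0.24 to -0.077), although in UMIs per barcode the 3 h value was 0.13. Relative to the all-gene median Mtr was at -0.25 and -0.32.

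Mtrr, on chromosome 13 (68560780 to 68582149, minus strand), encodes the reductase that keeps methionine synthase active. It was 16.8 CPM in the control (16.04 to 17.6), 22.9 CPM after 3 h (22.04 to 23.9) and 22.7 CPM after 6 h (21.9 to 23.5). The treated libraries overlapped each other and lay above the control. The log2 ratios of 0.45 (0.36 to 0.54) and 0.44 (0.35 to 0.52) were 0.34 and 0.27 above the all-gene median. Of the 7 genes Mtrr therefore had the highest ratio at both times. The transcripts of the synthase and its reductase stood on opposite sides of the typical gene.

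Over all members, the order of Mat2a against the other 6 was the same at both times. After 6 h the Mat2a log2 ratio was lower than that of each other gene by between 2.84 (Mtr) and 3.43 (Mtrr) log2 units. After 3 h the gap was between 1.18 and 1.76. Ahcy was taken alone in these ranges. Summed with Gm4737, it had log2 ratios of -0.49 after 3 h and -0.67 after 6 h, nearer to Mat2a than Mtr was. Of the 6 genes above the floor, 3 were below 0 and 3 above 0 at each time, where 35.9% of all genes were below 0 at both. The median of those 6 minus the all-gene median was -0.089 after 3 h and -0.21 after 6 h, and the 3 h value turned to 0.028 with a floor of 50 CPM.

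**Figure D3:**
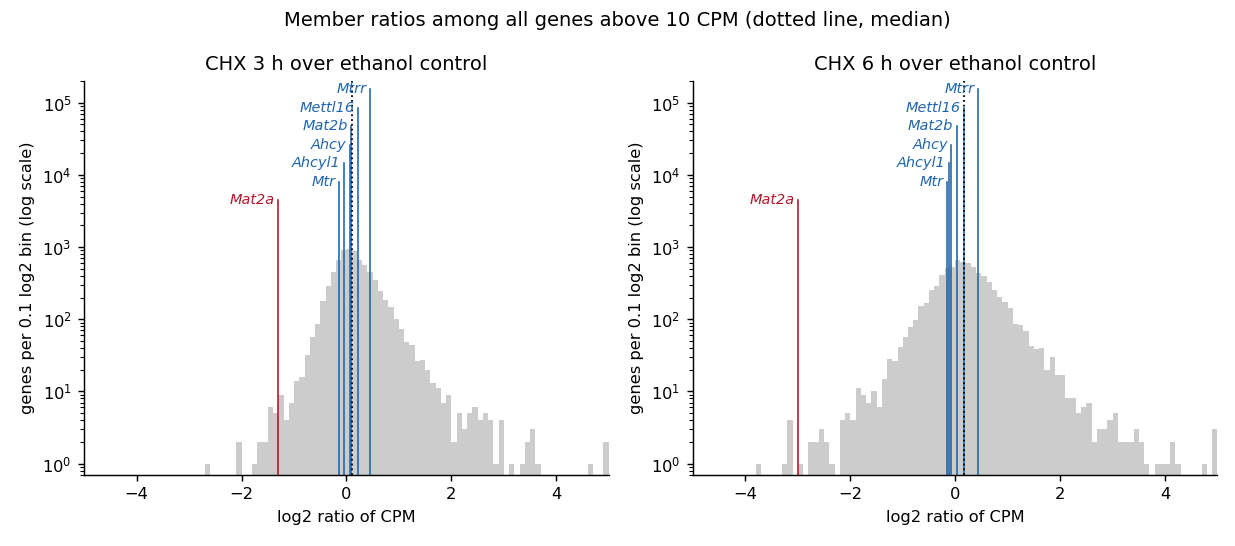
Log2 ratio of CPM to control after 3 h and 6 h for the 7608 genes whose mean reached 10 CPM (grey, genes per 0.1 bin on a log axis, values beyond 5 in the last bin), with the all-gene median dotted and the 7 cycle genes as vertical lines. Ahcy is drawn although it is under the floor, and the heights of the lines only separate the labels; Mat2a lies at -1.31 and -2.99 while the other 6 lie within the bulk.

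The Mat2a counts per barcode lay lower in the treated libraries, with a single peak in each library. Each barcode was thinned to 15000 UMIs so that depth was equal. The control barcodes had a median of 4 Mat2a UMIs (quartiles 3 and 6), the 3 h barcodes 2 (1 and 3) and the 6 h barcodes 0 (0 and 1). The means were 4.31, 1.83 and 0.59 UMIs. At counts this low, a single peak does not show whether all cells or only a part had less Mat2a. In the control 48 barcodes had 0 Mat2a UMIs, against 357 after 3 h and 1475 after 6 h.

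The share with at least 1 Mat2a UMI was thus 97.8% in the control (Clopper-Pearson 95% interval 97.1 to 98.4), 79.5% after 3 h (77.5 to 81.3) and 42.2% after 6 h (40.3 to 44.2). Without thinning these shares were 99.9%, 97.7% and 76.2%, so most 6 h barcodes still held at least 1 Mat2a UMI. After 6 h 0.822% of barcodes reached the control median, and after 3 h 14.4% did. Of all pairs of a 6 h and a control barcode, 91.6% had the lower count in the 6 h barcode and 5.69% were tied. For pairs of a 3 h and a control barcode, 75.8% were lower in the 3 h barcode, 10.3% tied and 13.9% higher. The variance over the mean was 1.36, 1.34 and 1.17, somewhat above the value of 1 that counting alone gives.

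Mettl16 did not have this shift. Its thinned mean was 2.16 UMIs in the control, 2.43 after 3 h and 2.38 after 6 h, with a median of 2 in each library. Barcodes with at least 1 Mettl16 UMI made up 85.9%, 89.6% and 89.5% (98.6%, 99.1% and 99.3% unthinned). After thinning, the other genes except Mtrr were near their control shares in the treated libraries. Mat2b was seen in 59.7%, 62.7% and 59.9% of thinned barcodes, Ahcyl1 in 29.9%, 30.6% and 28.7%, Mtr in 26.4%, 25.01% and 24.7%, and Ahcy in 8.96%, 10.4% and 8.38%. Mtrr was seen in 21.5% of control barcodes (19.8 to 23.3), 29.8% after 3 h (27.7 to 32.1) and 29.2% after 6 h (27.5 to 31.1), in the order of its CPM. Unthinned shares were 90.5%, 93.0% and 91.2% for Mat2b, 63.7%, 69.1% and 64.8% for Ahcyl1, 58.0%, 63.9% and 59.0% for Mtr, 26.8%, 33.1% and 28.03% for Ahcy, and 53.5%, 68.7% and 64.8% for Mtrr.

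**Figure D4:**
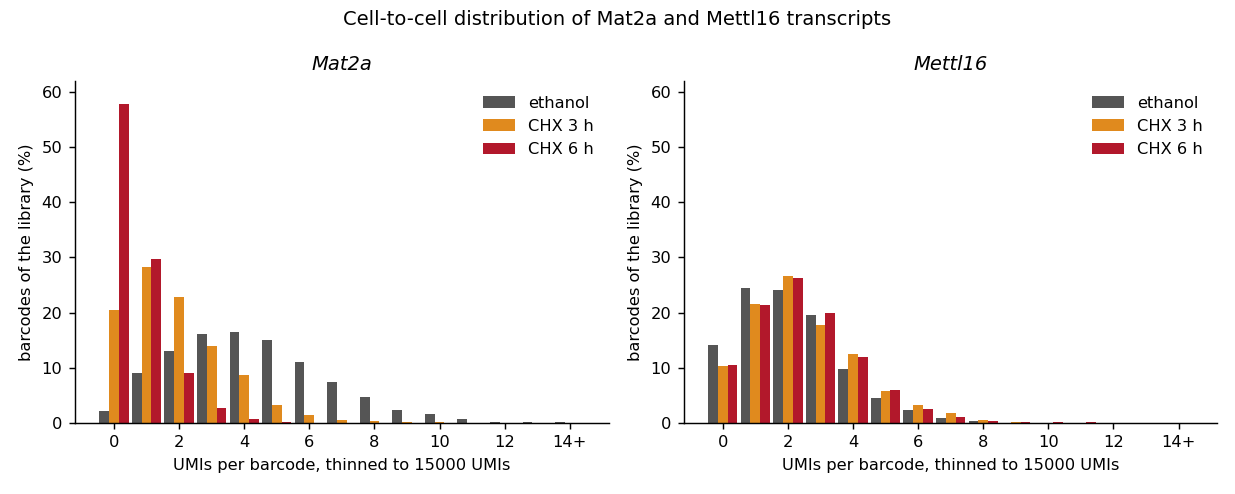
Share of barcodes of each library (vertical axis, %) by UMIs of Mat2a or Mettl16 per barcode after thinning each barcode to 15000 UMIs (horizontal axis, 14 and over in the last class). Mat2a moves from a median of 4 in the control to 2 after 3 h and 0 after 6 h, while the Mettl16 bars of the 3 libraries have a median of 2.

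Mat2a varied little with cell depth in the control and more in the treated libraries. When each library was split into 3 equal parts by UMIs per barcode, the control had 284, 293 and 286 CPM from the shallowest to the deepest part. After 3 h the parts had 137, 110 and 112 CPM, and after 6 h 47.0, 33.2 and 33.9 CPM. The shallowest part of the treated libraries was thus the highest, while every 6 h part was under every 3 h part.

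Barcodes that the selection left out gave further counts from the same 3 libraries. In barcodes of 10 to 100 UMIs, which mostly hold RNA free in the suspension, Mat2a was 207 CPM in the control (192 to 222), 92.0 CPM after 3 h (81.9 to 103) and 30.3 CPM after 6 h (25.1 to 36.3). Its log2 ratios there were -1.17 (-1.37 to -0.98) and -2.77 (-3.06 to -2.49). In the same barcodes Mettl16 was 99.5, 125 and 122 CPM. The free RNA of each library thus had the order of its cells, and no cell type that lacks Mat2a was present for a background share.

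Just outside the limit, in barcodes of 10000 to under 15000 UMIs, Mat2a was 328, 167 and 53.4 CPM (46, 53 and 50 barcodes). Just inside it, in barcodes of 15000 to under 20000 UMIs, it was 331, 151 and 57.8 CPM (43, 53 and 69 barcodes). Both sides of the limit had the same order of libraries. In all barcodes of 2000 to under 15000 UMIs the log2 ratios were -0.85 (-1.12 to -0.61) after 3 h and -1.98 (-2.32 to -1.66) after 6 h, nearer to 0 than in the selected cells.

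The lower mitochondrial limit removed mainly control barcodes. It left out 62 control, 1 3 h and 8 6 h barcodes with at least 15000 UMIs, and 0 exceeded 20%. The 62 control barcodes held Mat2a at 122 CPM (113 to 131) and Mettl16 at 73.0 CPM (66.5 to 79.9), both under the selected control cells. With them kept, the Mat2a log2 ratio was -1.27 after 3 h and -2.95 after 6 h.

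Among genes whose mean reached 20 CPM, the 5 whose pair of log2 ratios after 3 h and 6 h lay closest to that of Mat2a were Gbx2, Fos, Hspa8, Tcf15 and Inhbb. The measure was the Euclidean distance in log2 units over the 3 libraries, and it ranged from 0.27 for Gbx2 to 0.60 for Inhbb. Gbx2, a homeobox transcription factor, was 95.3, 33.8 and 10.4 CPM. Fos, an immediate-early transcription factor, was 45.4, 20.2 and 6.93 CPM. Hspa8, the constitutive HSC70 chaperone, was 2835, 1125 and 477 CPM. All 3 stood at 35.5 to 44.5% of the control after 3 h, beside 40.2% for Mat2a. Tcf15, a bHLH transcription factor, was 231, 93.9 and 39.7 CPM, with its 3 h level at 40.6% of control. Inhbb, the inhibin beta B subunit, was 37.8, 22.8 and 4.30 CPM, so its 3 h level was 60.4% of control, a larger share than that of Mat2a. After 6 h the 5 genes stood at 10.9% (Gbx2) to 17.2% (Tcf15) of control, beside 12.6% for Mat2a.

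No other gene above the floor in the lists around the cycle had a difference of the size of Mat2a. In the lists that follow, the number at least 2-fold lower or higher is set against 0.513% lower and 4.32% higher of all genes after 3 h, and 2.41% and 8.65% after 6 h. Each list median is given minus the all-gene median. The 2-fold counts of these lists use library totals and depend on the scaling. With TMM factors, Ythdc1 after 6 h and Slc43a2 after 3 h were less than 2-fold higher. Shmt1 after 3 h, Gclc after 6 h and Slc38a2 at both times were then at least 2-fold lower. In UMIs per barcode, Mthfd2 after 6 h was less than 2-fold lower and Ythdc1 after 3 h was at least 2-fold higher.

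Of 11 other cycle enzymes and tissue isoenzymes, 10 were found and 5 passed the floor, with 0 past 2-fold. Mat1a, the liver isoenzyme of Mat2a, had 0 UMIs in all 3 libraries, which in the control allows up to 0.0331 CPM by the exact Poisson 95% interval. The list median was 0.082 after 3 h and 0.12 after 6 h above all genes, and the 6 h value was -0.46 with a floor of 50 CPM, where Adk alone remained. The highest after 6 h was Ahcyl2, a paralog of Ahcyl1, at 13.8, 19.6 and 24.99 CPM (log2 ratio 0.50 after 3 h and 0.86 after 6 h). The lowest was Adk, which phosphorylates the adenosine that AHCY releases, at 66.2, 58.6 and 51.8 CPM (-0.17 and -0.35).

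The folate branch, which supplies the methyl group for methionine synthase, had 9 of 12 genes above the floor and a list median of -0.20 after 3 h and -0.40 after 6 h, the lowest of the 10 lists after 6 h. Of these, 2 were at least 2-fold lower after 6 h and 0 higher. Shmt1, the cytosolic serine hydroxymethyltransferase, was 73.6, 39.0 and 23.7 CPM (-0.92 and -1.64). Mthfd2, a mitochondrial folate dehydrogenase and cyclohydrolase, was 195, 145 and 96.8 CPM (-0.42 and -1.01). Its 6 h counting interval, -1.04 to -0.98, included the 2-fold limit. Both were lower at each step. Tyms, thymidylate synthase, was the highest of the list at 160, 231 and 291 CPM (0.53 and 0.86).

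In transsulfuration, which draws homocysteine off towards cysteine and glutathione, all 5 genes passed the floor and 0 were past 2-fold, with a list median of -0.25 and -0.34. Cth, cystathionine gamma-lyase, was highest at 162, 215 and 243 CPM (0.41 and 0.59). Gclc, the catalytic subunit of glutamate-cysteine ligase, was lowest at 29.5, 19.3 and 16.8 CPM (-0.61 and -0.81). The ends of this list thus lay on opposite sides of control.

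Methionine salvage and polyamine synthesis, which use SAM and return methionine, had 9 of 10 genes above the floor, 0 past 2-fold and a median close to all genes (-0.0036 and -0.012). Enoph1, a salvage enzyme, was highest at 33.7, 47.4 and 59.8 CPM (0.49 and 0.83). Sms, spermine synthase, was lowest at 171, 129 and 106 CPM (-0.41 and -0.69).

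Methionine uptake had 6 of 8 transporter genes above the floor, with genes far from control in both directions. Slc7a5, the large neutral amino acid transporter LAT1, was 46.6, 36.7 and 14.8 CPM (-0.35 and -1.65), the 1 gene of the list at least 2-fold lower after 6 h. Slc38a2 was just short of that limit at 103, 54.3 and 52.0 CPM (-0.92 and -0.98), and was the lowest of the list after 3 h. Slc43a2, the sodium-independent transporter LAT4, was 5.88, 12.8 and 19.7 CPM (1.12 and 1.75), the 1 gene at least 2-fold higher after 3 h and after 6 h. The list median, -0.20 and -0.18, hides these opposite positions.

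The 11 m6A writers and partners other than METTL16 all passed the floor with 0 past 2-fold, and the list median was 0.24 after 3 h and 0.0031 after 6 h. Mettl14, the partner of METTL3, was highest at 16.3, 25.6 and 26.3 CPM (0.65 and 0.69), and Mettl4 was lowest at 18.0, 17.8 and 15.5 CPM (-0.020 and -0.22). Among 10 m6A readers and erasers, all above the floor, the median was 0.10 and -0.069, the latter 0.19 with a floor of 50 CPM. Ythdc1, the nuclear m6A reader, was 167, 282 and 372 CPM (0.75 and 1.15) and the 1 gene at least 2-fold higher after 6 h. Fto, a demethylase, was lowest at 34.3, 29.1 and 28.7 CPM (-0.24 and -0.26).

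METTL16 also methylates U6 small nuclear RNA, and factors that handle U6 or the Mat2a intron formed a list of 14 genes, all above the floor with 0 past 2-fold. Their median was -0.14 and -0.21. Lsm8, part of the ring that binds the end of U6, was highest at 118, 149 and 179 CPM (0.33 and 0.60). Mepce, the 7SK capping enzyme, was lowest at 31.6, 33.8 and 24.2 CPM (0.096 and -0.39). Of 20 methyltransferases that use SAM, 18 passed the floor and 0 were past 2-fold, with a median of -0.087 and -0.10, the former 0.053 with a floor of 50 CPM. Pcmt1, a protein repair methyltransferase, was highest at 61.8, 75.9 and 98.8 CPM (0.30 and 0.68). Dnmt3b, a de novo DNA methyltransferase, was lowest at 50.3, 38.1 and 32.9 CPM (-0.40 and -0.61).

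**Figure D5:**
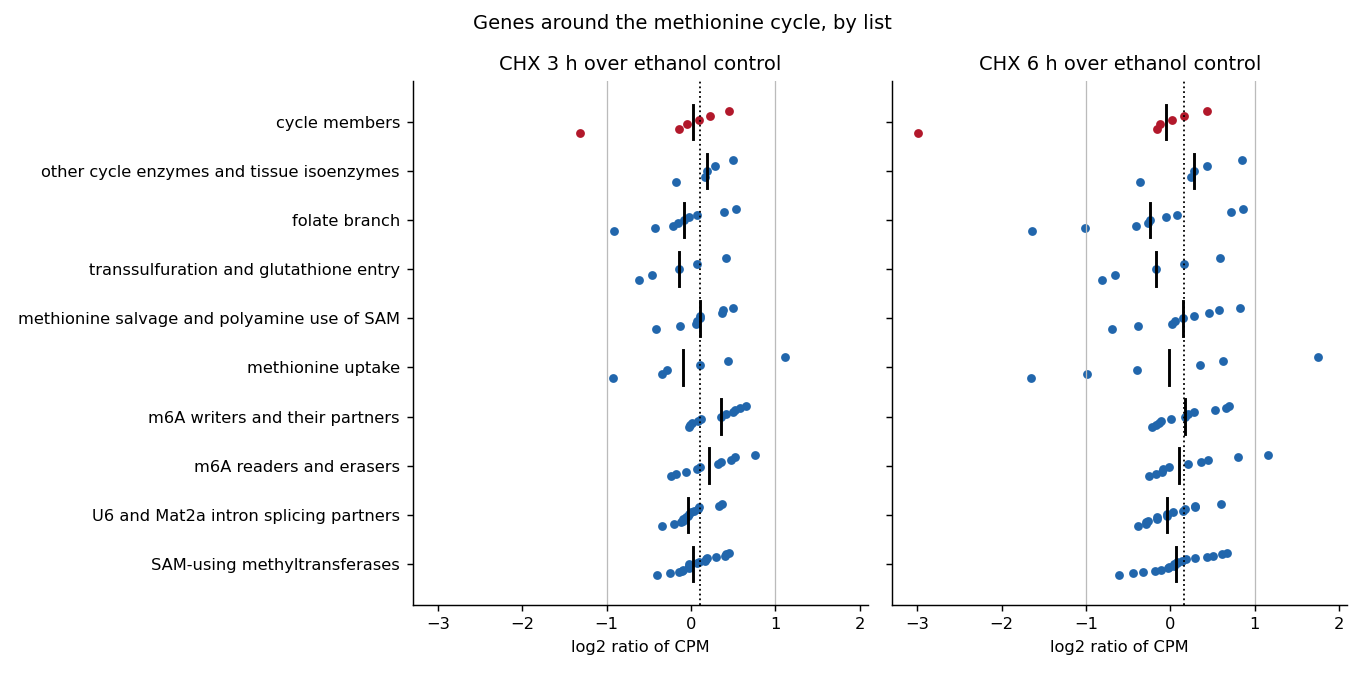
Log2 ratio of CPM to control after 3 h and 6 h (horizontal axes) for genes above the floor in the 10 lists around the cycle, 1 point per gene, with a black bar for each list median, a dotted line for the all-gene median and grey lines at 2-fold. Mat2a is the leftmost point of both panels at -1.31 and -2.99, followed after 6 h by Slc7a5 (-1.65) and Shmt1 (-1.64).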

How the data were processed

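The deposited matrices hold UMI counts for every gene in every barcode with no normalization, from Cell Ranger 4 per the file headers. The submitters' processing notes name Cell Ranger 4.0.0 and mm10. The annotation and the treatment of reads shared between genes are not given in the sources used here. All 6794880 possible barcodes were listed, so cells were selected by the limits given above. These kept 87.3% to 92.9% of the 115188502 to 150987519 UMIs per library. Doublets were not removed. Counts were summed per library and scaled to CPM, with a prior of 0.5 counts in log2 ratios (Python 3.11.15, scipy 1.17.1; TMM from edgeR 4.0.16). Of the gene identifiers, 32158 matched GENCODE M21 on GRCm38, which supplied positions and transcripts.

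With 1 library per group there was no test between conditions, and cells were not treated as replicates. Thinning drew UMIs without replacement. Near-identical copies were other transcripts with at least 200 aligned bases at 90% identity. Ratios and intervals were tested on simulated data. The members and gene lists were chosen with earlier results of these data known. Named genes were the members, the 5 nearest in pattern, and in each list the highest and lowest at 6 h and any past 2-fold. Other named markers, Mat1a and Slc38a2 were chosen after their values were seen. Alternatives covered scaling, depth, mitochondrial and expression limits, free RNA, doublets, the prior and thinning.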

Additional observations from a re-analysis of the deposited data

How the results depend on the processing

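The Mat2a log2 ratio was below -1 in all 12 settings, from -1.49 to -1.04 at 3 h, from -3.29 to -2.88 at 6 h and from -1.84 to -1.63 between them. At 3 h it was -1.49 with TMM factors, -1.49 with median-of-ratios factors, -1.04 in UMIs per barcode, -1.26 as a mean over cells and -1.27 with no lower mitochondrial limit. At 6 h the same settings gave -3.28, -3.29, -2.88, -2.89 and -2.95, and barcodes of at least 30000 UMIs gave -3.05. From 3 h to 6 h it was -1.79 with TMM, -1.80 with median-of-ratios, -1.84 per barcode and -1.63 as a mean over cells. Mat2a minus Mettl16 as a mean over cells was -1.48 at 3 h and -3.07 at 6 h. Genes at least 2-fold lower at 3 h numbered 64 with TMM, 64 with median-of-ratios, 21 per barcode, 8 with a floor of 50 CPM (2938 genes) and 566 with no floor (19112 genes). At 6 h they numbered 395, 413, 44 with the floor of 50 CPM and 923 with no floor.

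Among ratios to control whose interval excluded 0, signs turned for Mat2b at 3 h (-0.082 with TMM, -0.089 with median-of-ratios), Mettl16 at 6 h (-0.12 and -0.13) and Mtr at 3 h (0.13 per barcode). Among those whose interval included 0, signs turned for Mat2b at 6 h (-0.26 with TMM, -0.27 with median-of-ratios), Ahcy at 3 h (-0.11 and -0.12, and -0.49 summed with Gm4737), Ahcy at 6 h (0.031 per barcode, 0.0053 with free RNA subtracted) and Ahcyl1 at 3 h (0.22 per barcode, 0.013 with no lower mitochondrial limit). With the floor of 50 CPM, list medians minus the all-gene median turned to 0.028 for the cycle genes at 3 h, -0.46 for other cycle enzymes at 6 h, 0.19 for m6A readers and erasers at 6 h and 0.053 for methyltransferases at 3 h, with fewer genes in each list. Of 21 ratios of the 7 genes under the alternatives, 185 values moved by less than the counting interval, 65 moved by more and 5 turned sign with an interval that excluded 0. No paired analysis was possible because each group had 1 library. No replicate could be left out for the same reason, and differences between cultures were not measured.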
